A study of Homo sapiens with 16 samples.

Results

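The first response of A673 cells to loss of EWS-FLI1 was read from the 3 arrays titled 18 h against the 4 arrays titled 0 h, 7 of the 16 arrays in the series. A673 is an established Ewing sarcoma line, and every array used its clone Asp14, which carries an expression vector for a short hairpin RNA against EWS-FLI1 and a second vector labelled TR. Both groups were grown in medium with Zeocin and Blasticidin, which select for these vectors. The cells at 0 h were the controls at the moment of doxycycline addition, and those at 18 h had been in doxycycline at 1 ug/ml. Asp14 is 1 clone, and no arrays of doxycycline without the hairpin are part of the comparison, so loss of the fusion, doxycycline and time in culture cannot be told apart. The title of the series puts the question as the link between the fusion and the E2F factors.

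EWS-FLI1 joins the N-terminal part of EWSR1 to the DNA-binding ETS domain of FLI1. It activates many genes and represses others, and Ewing sarcoma cells need it to keep growing. MYC drives genes of ribosome production through E-boxes, E2F factors drive the genes of DNA replication, and a later wave of mitotic genes is read from promoters with CHR elements. ATF4 drives the integrated stress response, in which cells short of amino acids or under other stress raise genes of amino acid supply.

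RNA levels are given as log2 GCRMA values, 1 probe set per gene, so a difference of 1 is a doubling. A gene was called when limma's adjusted p over all 7304 genes tested was below 0.05, and differences are followed by the standard error of the fit. A value below log2 4 was treated as dim. Of 6 Ewing sarcoma markers looked for, 5 (CD99, NKX2-2, STEAP1, FLI1 and PRKCB) were at or above log2 4 on all 7 arrays, and NR0B1 had no probe set named for it alone. All 8 blood markers, 8 of 9 epithelial markers and 5 of 7 endothelial markers were below log2 4 on all 7 arrays. The summed epithelial level moved with the groups, with a mean over the 9 genes from 3.23 to 3.33 at 0 h and from 3.11 to 3.15 at 18 h (exact two-sided permutation test, p = 0.0286, the smallest that 35 splits allow). This mean includes KRT18, the 1 epithelial marker above the dim line, and the other 8 were dim on all 7 arrays. KRT18 read 8.67, 8.97, 8.90 and 9.69 at 0 h and 7.72, 8.08 and 8.16 at 18 h. Whether cells of another type had a part in other results was not tested. In RNA from whole cultures, fewer cells of a type and less RNA per cell cannot be told apart. The upper quartile of an array lay between 8.22 and 8.25, and as a sign of RNA quality the 3' end of ACTB exceeded its 5' end by 1.84 at 0 h and 1.94 at 18 h on average (exact permutation test, two-sided, p = 0.743).

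Replicates 2 and 3 stood close together at both times. The difference between them had an SD over genes of 0.176 at 0 h and 0.164 at 18 h, against 0.368 to 0.456 for the other pairs at 0 h and 0.50 for the other pairs at 18 h. The labels number the replicates without naming separate cultures. The p-values thus reflect how far these particular arrays scatter, and that scatter may be technical. The main counts are therefore also given with replicates 2 and 3 averaged into 1 sample.

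FLI1, the gene whose part the hairpin targets, read 10.17, 10.08, 10.06 and 9.99 at 0 h and 6.52, 7.17 and 6.94 at 18 h. The groups were far apart, and the fall of 3.20 ± 0.14 is 9.20-fold. Its 2 other probe sets differed by -3.82 and -2.51. EWSR1 read 9.32, 9.38, 9.31 and 9.40 at 0 h and 9.05, 9.21 and 9.16 at 18 h. All 3 values at 18 h were lower, by 0.21 ± 0.09 in the mean, and the difference was not called (limma adjusted p = 0.0887).

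At 18 h, 29.4% of the genes tested were called, 14.8% (1078 genes) higher and 14.7% (1072 genes) lower. The counts of every gene list below stand beside these shares. With replicates 2 and 3 averaged 1269 genes were called, 592 higher and 677 lower, and all 1269 were among the 2150. Without replicate 1 at 18 h, 667 were called higher and 686 lower. Of the genes tested, 3.01% were called and higher by at least 1 and 2.46% called and lower by at least 1. The median change of all genes was 0.02. In the pair of arrays numbered 1 and in the mean of those numbered 2 and 3, the change had the same sign for 5811 of the 7304 genes tested. Across all genes tested these 2 readings of the contrast correlated at r = 0.834, a description over genes that are not independent, and changes were wider in replicate 1 (SD over genes 0.641) than in replicates 2 and 3 (0.502).

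**Figure D1:**
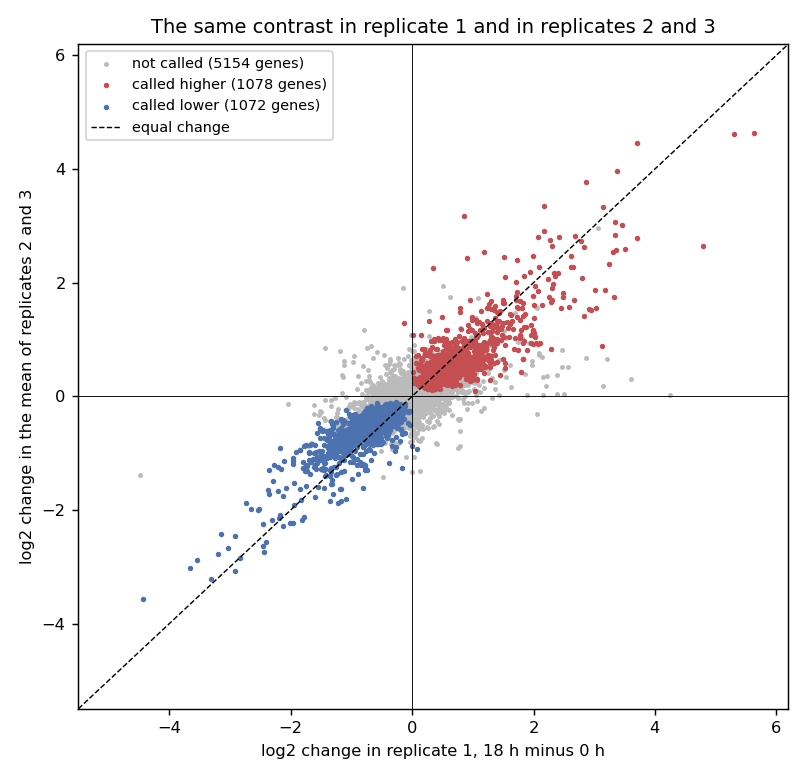
Log2 change of each of 7304 genes, 18 h minus 0 h, in replicate 1 (horizontal axis) and in the mean of replicates 2 and 3 (vertical axis). Red and blue points are called genes, grey points are not called, and the dashed line marks equal change. Calls were made from these same arrays, so called genes tend to have the same sign in both readings by choice, and the spread is wider along the axis of replicate 1 (SD 0.641 against 0.502).

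The class of steepest falls was taken from called genes without overlap between the groups and above the dim line on all 7 arrays. Among its members were FLI1, ETS2, E2F1, E2F5, surface receptors and a junction protein. After FLI1 came CLDN1, a claudin of tight junctions, which read 7.92, 8.38, 8.25 and 8.58 at 0 h and 5.08, 5.50 and 5.44 at 18 h. It fell 7.68-fold (-2.94 ± 0.27, limma adjusted p = 1e-05). PRR5L, which binds the mTORC2 kinase complex, read 7.44, 7.54, 7.64 and 7.65 and then 4.24, 4.97 and 4.67, with the same fall of 2.94 ± 0.15 on the log2 scale.

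ADRB3, the beta-3 adrenergic receptor, went from 7.79, 7.36, 7.21 and 7.65 to 5.36, 4.51 and 4.58. PTGER3, a prostaglandin E receptor, went from 10.23, 10.10, 10.08 and 10.16 to 8.05, 8.07 and 7.93. NPY1R, a receptor of neuropeptide Y, went from 11.30, 10.79, 10.73 and 10.68 to 9.36, 8.99 and 8.69. For all 3 receptors the lowest array at 0 h was more than 1 above the highest at 18 h, and the falls were 2.68 ± 0.20, 2.13 ± 0.24 and 1.86 ± 0.19.

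ETS2, an ETS factor outside the fusion, read 6.64, 6.43, 6.40 and 5.73 at 0 h and 4.19, 4.21 and 4.14 at 18 h, at the edge of the dim range. E2F5, a repressive E2F that pairs with RB-family proteins, read between 6.92 and 6.98 at 0 h and 4.74, 4.68 and 4.97 at 18 h. E2F1, an activator of S phase entry, read between 8.01 and 8.17 and then 5.88, 6.24 and 6.50. Their falls were 2.12 ± 0.20, 2.15 ± 0.15 and 1.88 ± 0.13 (limma adjusted p at most 1.28e-05). Of 16 ETS factors tested, FLI1 included, 2 were called lower and 2 higher, near the 14.7% and 14.8% of all genes. Of 13 genes of the E2F and RB family 5 were called lower and 0 higher. The remaining 6 of the 15 steepest falls in this class were LBH, CSPG5, JCAD, TBC1D5, AEN and KDSR, which fell by 1.77 to 2.29.

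Where every probe set of a gene was dim at 18 h, only a lower bound can be given, taking each dim value as log2 4. MYB, the haematopoietic and proliferative transcription factor, read 6.34, 6.21, 6.24 and 5.62 at 0 h and 3.42, 3.85 and 3.67 at 18 h, at least 4.29-fold lower. PEG3, an imprinted zinc finger gene, was at least 4.86-fold lower, the orphan nuclear receptor NR4A3 at least 2.26-fold and the membrane protein gene SHISAL1 at least 1.85-fold. GFRA2, a co-receptor for neurturin, was at least 2.48-fold lower (5.35, 5.43, 5.15 and 5.29 against 3.23, 2.79 and 3.23). These bounds leave out the spread of the brighter group. With dim values set to log2 4 before the fit, CHAC1, DKK1, FGFR3, GATA3 and HEY1, given below, were not called (limma adjusted p of 0.0933 to 0.754).

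Of the 15 genes that rose most above the dim line, IGFBP5, which binds insulin-like growth factors, read 5.00, 4.90, 4.69 and 6.60 at 0 h and 10.63, 9.59 and 9.28 at 18 h, the widest gain in this class at 4.54 ± 0.44. Replicate 4 at 0 h lay above the other 3. The groups of every gene in this class were without overlap by choice. Of its 4 other probe sets, the 2 above the dim line rose by 1.18 and 1.76 only.

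TFAP2B, a transcription factor of the neural crest, read 6.54, 5.16, 4.11 and 4.46 and then 9.87, 7.81 and 7.60, with its highest array at both times in replicate 1. The rise was 3.36 ± 0.67, and its other probe set rose by 0.69. The neurofilament genes NEFL and NEFM shared this order. NEFL read 6.84, 5.62, 5.51 and 6.00 at 0 h and 9.52, 8.44 and 8.33 at 18 h, and NEFM 10.26, 8.72, 8.89 and 9.53 and then 12.89, 11.06 and 11.10. They rose by 2.77 ± 0.34 and 2.33 ± 0.44, and the change within replicate 1 (2.68 and 2.62) was close to that within replicates 2 and 3 (2.82 and 2.27).

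TDO2, which degrades tryptophan, read 4.53, 4.90, 5.25 and 6.51 at 0 h and 7.87, 7.86 and 7.97 at 18 h. KMO, which acts later in the same pathway, went the other way, from 6.11, 5.46, 4.65 and 5.69 to the dim values 2.57, 2.17 and 2.19, at least 2.78-fold lower. MYLK, the myosin light chain kinase of contractile cells, went from 4.02 to 4.42 up to 6.76, 6.22 and 6.39. LRRC17, PHLDA1, PLK2, STC1, PCTP, TLE1, CYP1B1 and PTX3 rose by 2.18 to 2.92, and DDIT4, the remaining gene of the class, is given with the stress genes. PTX3, a secreted pentraxin, was lowest in replicate 1 at both times (4.93 and 8.08) and was not called with replicates 2 and 3 averaged (limma adjusted p = 0.11).

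**Figure D2:**
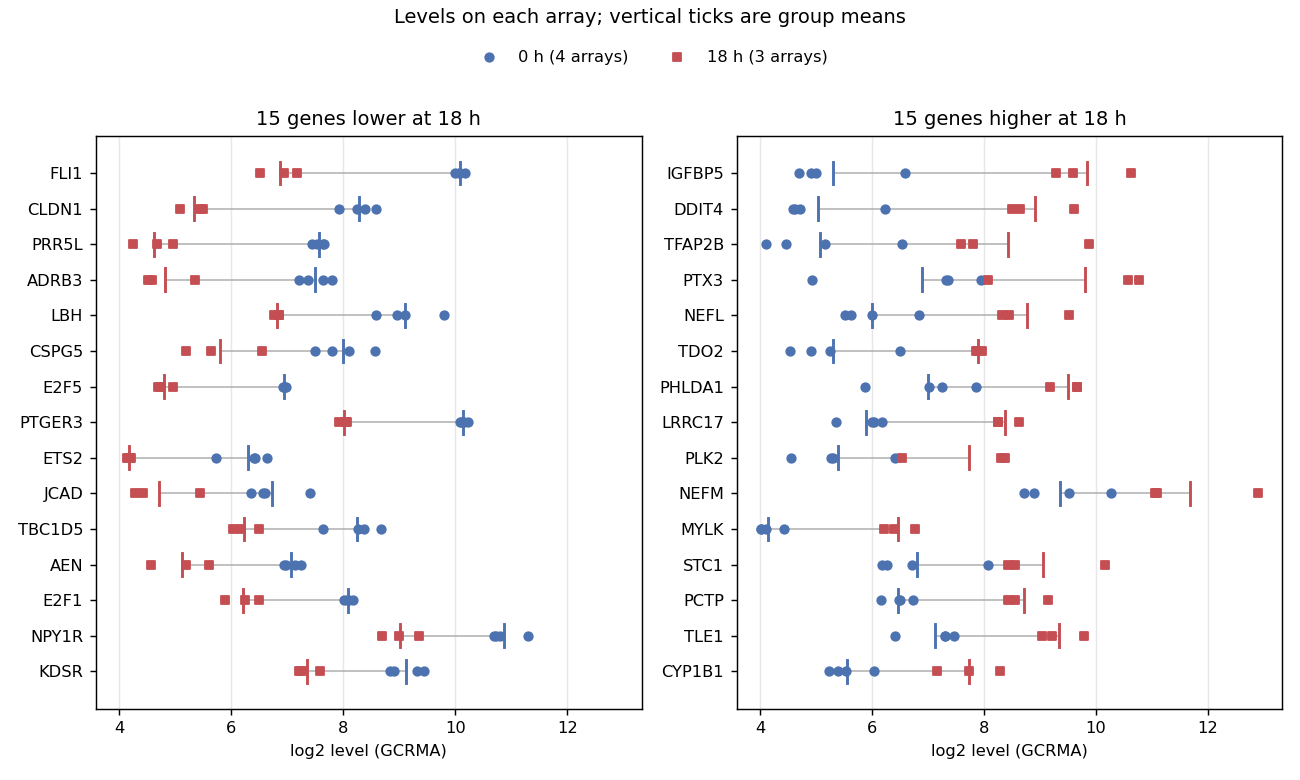
Log2 levels of the 15 genes that fell most (left) and the 15 that rose most (right) among called genes without overlap and at or above log2 4 on all 7 arrays. Circles are the 4 arrays at 0 h, squares the 3 arrays at 18 h, and vertical ticks the group means; FLI1 and IGFBP5 stand at the top of the panels.

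Of the genes dim at 0 h and measured at 18 h, the chemokine CXCL12 read 3.55, 3.48, 3.31 and 3.28 and then 5.72, 6.74 and 6.76, at least 5.31-fold higher. ORAI3, a subunit of store-operated calcium channels, was at least 3.22-fold higher, and VLDLR, the receptor of very low density lipoprotein, at least 3.18-fold. KCNMB4, a subunit of calcium-activated potassium channels, was at least 2.86-fold higher, CXCL14 at least 2.54-fold, the lymphocyte receptor gene SLAMF1 at least 2.39-fold and AHNAK2 at least 2.27-fold. DKK1, a secreted Wnt inhibitor, read 1.79 to 2.04 at 0 h and 2.69, 4.87 and 5.09 at 18 h. Replicate 1 was still dim, the bound was 1.16-fold, and the gene was not called with replicates 2 and 3 averaged (limma adjusted p = 0.0534).

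The genes called with the smallest adjusted p were not all among those with the widest change. CDC42EP3, an effector of the small GTPase CDC42, read 6.45, 6.09, 6.28 and 6.41 at 0 h and 8.15, 8.22 and 8.16 at 18 h (1.87 ± 0.10, limma adjusted p = 8.38e-08). FAR2, which makes fatty alcohols, went from 4.43 to 4.73 up to 6.63, 6.17 and 6.21 (1.80 ± 0.13). COL1A2, a chain of type I collagen, is given with the matrix genes.

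MYC fell from 10.74, 10.83, 10.69 and 10.88 to 9.29, 9.50 and 9.44. The groups were more than 1 apart, and the fall was 2.59-fold (-1.38 ± 0.09, limma adjusted p = 4.89e-07). It was 1.45 in replicate 1 and 1.29 in replicates 2 and 3. Of the 8 tested genes of its network, MYC itself not counted, 2 were called higher and 1 lower. MXI1, which opposes MYC at shared sites, rose by 0.86 ± 0.25, a call lost without replicate 1 at 18 h (limma adjusted p = 0.098), without replicates 3 or 4 at 0 h (0.0514 and 0.0533) and in the 7 arrays alone (0.0718). MNT, with the same role, rose by 0.41 ± 0.14, a call that was lost with the replicate block (limma adjusted p = 0.0811), with replicates 2 and 3 averaged (0.0752), without replicate 1 at 18 h (0.205) and in most other fits that left out 1 array.

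Genes of ribosome biogenesis, which process ribosomal RNA and assemble the subunits, were called lower in most cases. Of 56 listed genes 42 were tested, 35 were called lower and 0 higher, against 14.7% and 14.8% of all genes, and 37 lay below every array of 0 h, as did 20.4% of all genes. The median change was -0.72, against 0.02 for all genes, and 29 were called lower with replicates 2 and 3 averaged. NOP16, a nucleolar protein, read 9.62, 9.65, 9.83 and 10.07 at 0 h and 7.82, 8.50 and 8.46 at 18 h (-1.53 ± 0.18). NIP7, needed for pre-rRNA processing, read 9.44, 9.71, 9.81 and 9.76 and then 7.83, 8.44 and 8.57 (-1.40 ± 0.17).

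RRP9, a protein of the U3 particle, fell by 1.37 ± 0.18, MYBBP1A by 1.24 ± 0.16, PNO1, which matures the small subunit, by 1.13 ± 0.15, and POLR1C, a subunit shared by RNA polymerases I and III, by 0.79 ± 0.10. Among the brightest nucleolar genes, nucleolin (NCL) went from 12.75 to 12.82 down to 12.22, 12.30 and 12.44, and nucleophosmin (NPM1) read 14.12 to 14.15 and then 14.05, 14.07 and 14.12. NCL was called lower (-0.47 ± 0.06) and NPM1 was not (-0.05 ± 0.06, limma adjusted p = 0.503). The median member stood 0.90 below its 0 h mean in replicate 1 at 18 h, 0.52 in replicate 2 and 0.56 in replicate 3.

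The E-box letters CACGTG, which read the same on both strands, stood in the promoter window of 52.8% of the ribosome biogenesis genes (19 of 36 with a window), against 10.9% of the 6129 tested genes with a window. Windows run from 250 bases before to 50 after the start of a gene in the RefSeq table of GRCh38.p14, and only bases before the start are printed. The share was 17.8% among genes called lower by at least 1 and 7.95% among genes called higher by at least 1. A match is a description of the letters and not of binding. The 3 stretches below show where the letters lie, in capitals, in genes that fell: UTP20 at chr12:101280005-101280104 (plus strand), UTP18 at chr17:51260410-51260509 (plus strand) and IMP4 at chr2:130342647-130342746 (plus strand), all components of the small-subunit processome.
UTP20: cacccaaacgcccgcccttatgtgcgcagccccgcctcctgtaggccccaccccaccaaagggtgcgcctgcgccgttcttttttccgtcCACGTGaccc
UTP18: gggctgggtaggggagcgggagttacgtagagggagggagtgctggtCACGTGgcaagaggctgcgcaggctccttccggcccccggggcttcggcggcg
IMP4: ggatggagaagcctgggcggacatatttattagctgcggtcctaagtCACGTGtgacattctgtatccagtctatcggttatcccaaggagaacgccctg

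UTP20 read 6.79, 7.22, 7.18 and 7.47 at 0 h and 5.87, 5.96 and 6.25 at 18 h (-1.14 ± 0.17). UTP18 read 11.98 to 12.08 and then 11.36, 11.68 and 11.66 (-0.46 ± 0.08). IMP4 read 8.75, 9.17, 9.18 and 9.36 and then 8.17, 8.67 and 8.54 (-0.65 ± 0.16). None of the 3 overlapped between the groups, and 20.4% of all genes lay below every array of 0 h. The 3 were taken from the called list members with the smallest p that hold the letters. That choice favours groups without overlap.

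Other parts of the machinery of growth moved less. Of 44 genes of the mitochondrial ribosome 14 were called lower and 2 higher, against 14.7% and 14.8% of all genes, with a median of -0.15, and 7 and 1 with replicates 2 and 3 averaged. MRPS12 fell by 0.79 ± 0.13 and MRPS2 by 0.59 ± 0.10. Of 47 splicing factors 18 were called lower and 2 higher (12 and 1 with the average), led by the SR protein SRSF6 (-0.74 ± 0.15). Of 43 genes of the respiratory chain 3 were called higher and 1 lower, and of 26 proteasome genes 1 higher and 0 lower, both shares under those of all genes.

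The genes that open replication origins were also called lower in most cases. Of 26 genes of origin licensing and the replicative helicase, 19 were called lower and 0 higher, with a median of -0.65, and 17 with replicates 2 and 3 averaged. ORC1, a subunit of the origin recognition complex, read 7.95, 8.15, 8.32 and 8.15 at 0 h and 5.67, 7.07 and 6.98 at 18 h (-1.57 ± 0.30). CDC45, which completes the active helicase, read 8.53, 8.71, 8.54 and 8.25 and then 6.56, 7.49 and 7.47 (-1.33 ± 0.23). GINS3, a further helicase subunit, fell by 1.26 ± 0.18.

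All 6 subunits of the MCM2 to MCM7 ring were called lower, with a median of -0.73. MCM3 read 11.01, 10.95, 10.96 and 11.15 and then 9.77, 10.28 and 10.29 (-0.90 ± 0.12), MCM2 fell by 0.84 ± 0.16 and MCM5 by 0.68 ± 0.13. Replicate 1 was the lowest array at 18 h for each of the 6 genes, and the median change of the 6 was -1.08 in replicate 1 and -0.55 in replicates 2 and 3. The whole licensing list had medians of -0.99 in replicate 1 at 18 h, -0.44 in replicate 2 and -0.48 in replicate 3, relative to its 0 h means. Without replicate 1 at 18 h, 11 of the 26 were called lower.

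At the fork itself, 20 of 36 polymerase and fork genes were called lower and 0 higher (median -0.54), and 17 with the average. RPA2, a subunit of the single-strand binding protein, fell by 0.90 ± 0.09, POLD3 of polymerase delta by 0.89 ± 0.13, the flap nuclease FEN1 by 0.88 ± 0.13, and SLBP, which binds histone mRNA, by 0.92 ± 0.11. In nucleotide synthesis 16 of 26 were called lower and 1 higher (median -0.31), and 11 and 0 with the average. RRM2, the limiting subunit of ribonucleotide reductase, read 13.64 to 13.73 and then 11.77, 12.57 and 12.37 (-1.43 ± 0.17). CTPS1, UMPS, PPAT, PRPS1 and PRPS2, of pyrimidine and purine synthesis, fell by 0.61 to 0.95.

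E2F letters (TTTCCCGC, TTTGGCGC or TTTCGCGC, either strand) stood in 50% of licensing promoters (11 of 22), 22.6% of fork promoters (7 of 31) and 4.98% of all 6129. Among genes called lower by at least 1 the share was 7.41% (10 of 135). Among those called higher by at least 1 it was 1.70% (3 of 176). The stretches of MCM3 at chr6:52284863-52284962 (minus strand), PCNA at chr20:5126628-5126727 (minus strand) and POLA1 at chrX:24693735-24693834 (plus strand) are shown as a helicase subunit, the polymerase clamp and the polymerase that starts new strands, with the letters in capitals.
MCM3: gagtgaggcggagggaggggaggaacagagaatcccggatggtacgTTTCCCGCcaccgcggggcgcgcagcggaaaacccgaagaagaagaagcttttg
PCNA: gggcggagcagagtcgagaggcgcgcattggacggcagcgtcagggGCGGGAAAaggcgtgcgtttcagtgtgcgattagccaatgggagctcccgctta
POLA1: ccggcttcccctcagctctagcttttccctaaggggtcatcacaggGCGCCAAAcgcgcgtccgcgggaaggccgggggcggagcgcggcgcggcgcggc

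PCNA read 13.14, 13.01, 13.02 and 13.09 at 0 h and 12.22, 12.48 and 12.50 at 18 h (-0.67 ± 0.11). POLA1 read 8.80, 8.84, 8.67 and 8.36 and then 7.62, 7.96 and 7.93 (-0.83 ± 0.18).

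Most mitotic genes were not called at 18 h. Of 54 tested, 2 were called lower and 1 higher, under the shares of all genes, with a median of -0.09 and 36 of 54 changes below 0. ZWINT, of the kinetochore, fell by 0.54 ± 0.12 and the checkpoint gene MAD2L1 by 0.45 ± 0.12, the latter not called without replicate 1 at 18 h (limma adjusted p = 0.0678). CCNB1 read 12.35, 12.07, 12.10 and 11.78 at 0 h and 12.03, 12.08 and 11.99 at 18 h, inside the range of 0 h (-0.04 ± 0.17, limma adjusted p = 0.896). CDC20, which activates the anaphase-promoting complex, overlapped as well, at 10.99 to 11.36 and 11.10 to 11.13. The median mitotic gene spread at 0 h from 0.25 above its mean in replicate 1 to 0.28 below it in replicate 4.

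By pairs, the mitosis median was -0.41 within replicate 1 and -0.10 within replicates 2 and 3, and near 0 without replicate 1 at 0 h. At 36 h the median mitotic gene stood 1.38 to 1.91 below its 0 h mean, and the licensing list 2.52 to 2.83 below. The CHR letters TTTGAA (either strand) stood in 70.2% of mitotic promoters (33 of 47) and 9.97% of all, and E2F letters in 8.51%. The stretch of PRC1, which bundles midzone microtubules, at chr15:90994536-90994635 (minus strand) shows the CHR letters in capitals, as the contrast to the E2F promoters.
PRC1: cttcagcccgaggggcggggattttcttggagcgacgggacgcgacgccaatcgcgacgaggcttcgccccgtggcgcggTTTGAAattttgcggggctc

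**Figure D3:**
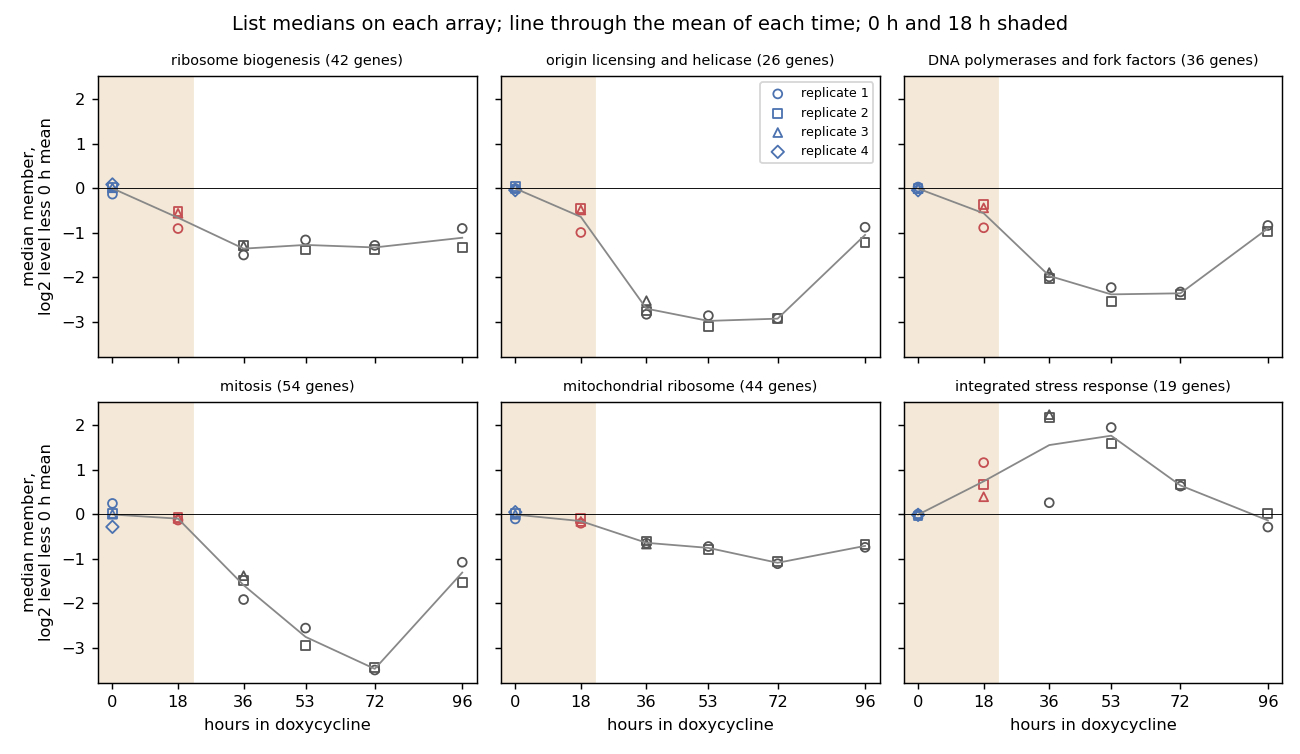
Median over the members of 6 gene lists of the log2 level less the 0 h mean, on each of the 16 arrays against hours in doxycycline. Symbols are replicate numbers, blue is 0 h, red is 18 h, and lines join the mean of each time. At 18 h ribosome biogenesis and replication lists lie below 0 and mitosis near 0, replicate 1 is the lowest array for the replication lists, and the stress list at 36 h is split between replicate 1 and the other 2.

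Regulators of the step from G1 to S moved in both directions. Of 17 cyclins, kinases and inhibitors, 8 were called lower and 3 higher, against 14.7% and 14.8% of all genes. With replicates 2 and 3 averaged 6 and 3 were called. CDC25A, the phosphatase that activates CDK2, read 6.37, 6.85, 6.95 and 6.76 at 0 h and 3.99, 5.26 and 5.24 at 18 h (-1.90 ± 0.27). CCNE2, cyclin E2, went from 6.59, 7.28, 7.27 and 7.28 to 5.24, 5.58 and 5.27 (-1.74 ± 0.31), CDK2 fell by 0.79 ± 0.13, CCND3 by 0.77 ± 0.16 and SKP2, which marks p27 for destruction, by 0.90 ± 0.19. CDKN1B, the gene of p27, rose from 10.02 to 10.55 up to 11.28, 11.05 and 10.96 (0.77 ± 0.15). CCNG2, an inhibitory cyclin, rose by 1.96 ± 0.25, from 7.19 to 8.27 up to 10.28, 9.64 and 9.48.

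CDKN1A, the gene of p21, did not separate, with 7.02 to 8.24 at 0 h and 8.15, 6.85 and 6.64 at 18 h (limma adjusted p = 0.546). Of 17 p53 target genes 4 were called higher and 3 lower, against 14.8% and 14.7% of all genes, and 2 were called higher without replicate 1 or 2 at 18 h or replicate 2 at 0 h. PLK2 rose by 2.35 ± 0.46 and AEN, a nuclease of apoptosis, fell by 1.95 ± 0.29.

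In DNA repair 9 of 32 were called lower and 2 higher, against 14.7% and 14.8% of all genes. The uracil glycosylase UNG read 9.41, 9.66, 9.64 and 9.83 at 0 h and 7.82, 8.43 and 8.33 at 18 h (-1.44 ± 0.14). BRIP1, a helicase partner of BRCA1, fell by 1.41 ± 0.14 and the nuclease EXO1 by 1.31 ± 0.22. Of 24 silencing genes 9 were called lower and 3 higher, against the same shares, and 4 and 1 with the average. SUV39H2, which methylates histone H3 at lysine 9, went from 6.22, 6.61, 6.44 and 6.45 to the dim values 2.91, 3.58 and 3.05, while its paralogue SUV39H1 fell by 0.56 ± 0.11. HELLS, a remodeller needed for DNA methylation, fell by 1.04 ± 0.27, a call lost without replicate 1 at 18 h (limma adjusted p = 0.0564).

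Of 19 genes of the integrated stress response 6 were called higher and 1 lower (14.8% and 14.7% of all genes), with a median of 0.87 (1.22 within replicate 1 and 0.39 within replicates 2 and 3), and 13 lay above every array of 0 h, as did 20.5% of all genes. DDIT4, an inhibitor of mTORC1, read 6.23, 4.59, 4.63 and 4.71 at 0 h and 9.60, 8.65 and 8.50 at 18 h (3.87 ± 0.52). CHAC1, which breaks down glutathione, read 2.69 to 2.92 and then 5.71, 4.48 and 4.89, at least 2.03-fold higher. CTH, which makes cysteine, went from 8.19 to 8.78 up to 9.71, 9.77 and 9.61 (1.15 ± 0.25).

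For 3 well known ATF4 targets, ASNS being listed with amino acid synthesis, the call depended on the arrays that set the spread. TRIB3, a pseudokinase, read 8.02, 7.25, 7.51 and 7.58 at 0 h and 10.07, 9.06 and 8.84 at 18 h. ASNS, asparagine synthetase, read 9.63, 10.15, 10.07 and 10.16 and then 11.41, 11.16 and 11.17. DDIT3, the gene of CHOP, read 7.06 to 7.36 and then 8.87, 8.29 and 8.29. All 3 lay above every array of 0 h, as did 20.5% of all genes, and they were chosen after their values were seen. The differences were 1.73 ± 0.71, 1.24 ± 0.54 and 1.28 ± 0.58, and none was called (limma adjusted p of 0.082, 0.0992 and 0.117).

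At 36 h these genes were split within the group. TRIB3 read 7.81 in replicate 1 and 11.58 and 11.71 in replicates 2 and 3, and ASNS read 9.61, 12.59 and 12.71. That spread entered the standard error of every contrast in the fit over 16 arrays. In a fit of the 7 arrays alone, the adjusted p was 0.00917 for TRIB3, 0.00244 for ASNS and 0.00345 for DDIT3, and 11 of the 19 list members were called higher and 2 lower. ATF4 itself read 11.72 to 11.93 and then 12.42, 12.22 and 12.21 (0.45 ± 0.24, adjusted p = 0.18 in the main fit and 0.00772 in the 7 arrays).

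Serine, one-carbon and asparagine synthesis showed the same dependence, with 0 of 15 called higher in the fit over 16 arrays and 5 in the 7 arrays, and so did the aminoacyl-tRNA synthetases, with 1 and 6 of 16. Of 21 genes of the unfolded protein response of the endoplasmic reticulum limma called 0 in either direction, and 0 had an unadjusted p below 0.05. In the fit of the 7 arrays alone 1 was called higher and 4 lower. HSPA5, its main chaperone, read 13.57 to 13.70 and then 13.51, 13.58 and 13.51. Of 21 heat shock and chaperonin genes 6 were called lower and 1 higher, against 14.7% and 14.8% of all genes. With replicates 2 and 3 averaged 2 and 1 were called. CCT2, a chaperonin subunit, fell by 0.38 ± 0.08.

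The composite element bound by ATF4 (TGATGCAA or TGATGAAA, either strand) stood in 12.5% of the stress promoters (2 of 16) and 0.881% of all. The stretch of CHAC1 at chr15:40953221-40953320 (plus strand) holds it, in capitals on the opposite strand.
CHAC1: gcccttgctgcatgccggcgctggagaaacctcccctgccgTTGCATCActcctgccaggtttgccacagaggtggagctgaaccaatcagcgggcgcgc

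In metabolism, the 22 tested genes of the cholesterol synthesis list all had changes above 0, as did 3855 of the 7304 genes tested. The list also holds fatty acid genes such as SCD and FASN and regulators such as SREBF1 and INSIG1. Of the 22 genes 6 were called higher and 0 lower, against 14.8% and 14.7% of all genes, with a median of 0.34. With replicates 2 and 3 averaged 3 were called. SREBF1, the transcription factor of lipid synthesis, read 7.25, 5.97, 5.90 and 4.77 at 0 h and 8.04, 7.43 and 7.54 at 18 h (1.70 ± 0.39). LSS, lanosterol synthase, went from 8.47 to 9.15 up to 9.91, 9.75 and 9.82 (0.89 ± 0.15), and TM7SF2, a sterol reductase, rose by 1.38 ± 0.35, the latter not called without replicate 1 at 18 h (limma adjusted p = 0.0547). Replicate 4 at 0 h was the low array, with the median member 0.22 below its 0 h mean.

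Of 17 hypoxia genes 7 were called higher and 0 lower, against 14.8% and 14.7% of all genes, and 3 and 0 with the average. With the replicate block 2 were called higher. The glucose transporter gene SLC2A3 rose by 0.95 ± 0.17, and P4HA2, a collagen prolyl hydroxylase, by 1.29 ± 0.39, the latter not called under the block (limma adjusted p = 0.0558) or the average (0.0566). Of 17 glycolysis enzymes 0 were called higher and 1 lower.

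Of 39 receptor tyrosine kinases and ligands 11 were called higher and 7 lower, the latter close to the 14.7% of all genes, and 7 and 5 with replicates 2 and 3 averaged. PDGFRA, a receptor of platelet-derived growth factor, read 3.84, 3.24, 3.26 and 3.78 at 0 h and 9.14, 7.89 and 7.86 at 18 h. This probe set was dim on all 4 arrays of 0 h, so the rise is at least 19.6-fold, and the other probe set above the dim line rose by 0.11. PDGFRB read 6.85, 7.47, 7.29 and 6.86 and then 8.01, 8.02 and 8.17 (0.95 ± 0.14). EGFR was dim at 0 h and read 4.81, 4.89 and 4.94 at 18 h, at least 1.84-fold higher.

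KIT, the receptor of stem cell factor, fell from between 5.60 and 7.03 to 3.13, 4.69 and 4.07 (-2.62 ± 0.36). FGFR3 was at least 1.56-fold lower and the ephrin gene EFNB2 at least 1.53-fold lower. FGF13, an intracellular fibroblast growth factor homologue, fell by 1.28 ± 0.24 and TYRO3 by 1.00 ± 0.16.

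In the insulin-like growth factor axis 4 of 13 were called higher and 3 lower, against 14.8% and 14.7% of all genes. IGFBP2 rose by 0.64 ± 0.10 and IGF2R, which clears IGF2, by 0.74 ± 0.12. PAPPA, a protease of IGF-binding proteins, fell from 8.58 to 8.92 down to 7.31, 7.54 and 7.57 (-1.25 ± 0.15).

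Of 27 AP-1 and related immediate early factors 3 were called higher and 4 lower, near the 14.8% and 14.7% of all genes. FOSL1, the Fos-related FRA1, read 4.86, 5.22, 5.18 and 5.53 at 0 h and the dim values 2.32, 3.65 and 2.75 at 18 h, at least 2.29-fold lower. SRF, the serum response factor, fell by 0.90 ± 0.11, from 7.35 to 7.52 down to 6.63, 6.52 and 6.42. FOS itself followed the replicate number, with 6.41, 3.76, 3.55 and 5.36 at 0 h and 7.16, 2.82 and 2.65 at 18 h, high in replicate 1 and low in replicates 2 and 3 at both times (limma adjusted p = 0.81). ZFP36L1, which shortens the life of AU-rich mRNAs, rose by 1.10 ± 0.11.

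Of 13 inhibitors of MAPK signalling 2 were called higher, near the 14.8% of all genes, and 1 lower, under the 14.7%. SPRY2 rose from 7.03 to 7.59 up to 7.87, 8.40 and 8.17 (0.83 ± 0.15), DUSP7 fell by 0.64 ± 0.15, and the call of SPRY4 (0.91 ± 0.28) was lost with the average (limma adjusted p = 0.0787). SPRY1, listed with genes known to be repressed by the fusion, read 4.78, 4.80, 3.72 and 3.94 and then 7.64, 8.06 and 8.02.

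Of 25 Wnt pathway genes 7 were called higher and 2 lower, against 14.8% and 14.7% of all genes. With replicates 2 and 3 averaged 5 and 1 were called. Among the called genes were Groucho co-repressors. TLE1 read 7.30, 7.46, 7.30 and 6.41 at 0 h and 9.78, 9.03 and 9.22 at 18 h (2.23 ± 0.23), and TLE4 8.32, 8.07, 7.93 and 7.65 and then 10.16, 9.45 and 9.40 (1.67 ± 0.18). TCF7L2, a factor they bind, rose by 0.98 ± 0.10 and all 5 of its other probe sets rose by 0.54 to 1.06. DKK3, a secreted protein of the Dickkopf family, rose by 2.42 ± 0.37, from a 0 h level near the dim line, and was not called on the mean of its probe sets (limma adjusted p = 0.103).

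Of 10 Notch pathway genes 4 were called higher and 0 lower, against 14.8% and 14.7% of all genes, and 2 higher with the average. HEY1, a Notch target, read 2.51 to 3.45 at 0 h and 6.11, 4.53 and 4.06 at 18 h, at least 1.87-fold higher, and NOTCH2 rose by 0.61 ± 0.13. In BMP and TGF-beta signalling 7 of 29 were called higher and 2 lower, against the same shares, and 4 and 1 with the average. TGFBR3, the co-receptor betaglycan, rose from 5.32, 5.48, 5.66 and 6.03 to 7.59, 7.28 and 7.36 (1.78 ± 0.37), ACVR1 by 0.67 ± 0.13 and BMP7 by 0.63 ± 0.10. BAMBI, a pseudoreceptor that blocks TGF-beta, fell by 0.88 ± 0.19.

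Of 36 neural and synaptic genes 15 were called higher and 2 lower, against 14.8% and 14.7% of all genes. With replicates 2 and 3 averaged 11 and 2 were called. Beside the neurofilaments, ENC1, an actin-binding protein of neurons, read 4.92, 5.15, 5.27 and 4.85 at 0 h and 6.63, 6.92 and 7.04 at 18 h (1.82 ± 0.16). GAP43, a growth cone protein, read 6.25 to 6.36 and then 7.84, 7.76 and 7.42 (1.35 ± 0.14), SYT11 rose by 1.25 ± 0.14 and the guidance cue SEMA3A by 1.11 ± 0.18. The 2 that fell were KALRN, an exchange factor of dendritic spines, at least 3.87-fold lower, and the adhesion gene NLGN4X (-1.02 ± 0.12).

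Collagens and their enzymes were called higher in 9 of 26 cases and lower in 3, against 14.8% and 14.7% of all genes. With the average 6 and 1 were called. COL1A2 read 7.66, 7.99, 7.84 and 8.11 at 0 h and 9.50, 9.96 and 10.10 at 18 h, up 3.86-fold (1.95 ± 0.13), and its other probe set rose by 2.72. COL3A1, already bright, read 12.44, 13.13, 13.10 and 13.01 and then 13.84, 14.13 and 14.14 (1.11 ± 0.13). When probe sets of the _x and _s types were left out, the remaining probe set of COL3A1 differed by 0.23 and was not called (limma adjusted p = 0.548). COL6A1 rose by 1.12 ± 0.17, with 0.01 by the same alternative (0.977), and COL5A2 by 0.80 ± 0.08. Of 50 other matrix genes 10 were called higher and 5 lower, against 14.8% and 14.7% of all genes, and 6 and 3 with the average. SPARCL1, a secreted relative of SPARC, rose by 2.13 ± 0.32, the basement membrane gene NID2 by 1.36 ± 0.15 and LAMC1 by 0.89 ± 0.14, while the proteoglycan SDC4 fell by 1.13 ± 0.23.

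Of 50 genes of actin, adhesion and YAP 7 were called higher and 1 lower, under the 14.8% and 14.7% of all genes. With the average 4 and 0 were called, and with the replicate block 11 and 1. ITGA4, an integrin of migrating cells, rose by 1.46 ± 0.22. PCDH8, a protocadherin, fell from 7.12, 6.42, 6.03 and 7.07 to between 2.64 and 2.69. CDH2, N-cadherin, rose from at most 9.20 up to 10.17, 9.83 and 9.81 (0.83 ± 0.12), and CDH11 fell by 0.49 ± 0.10.

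Among 47 developmental transcription factors 14 were called higher and 5 lower, against 14.8% and 14.7% of all genes. With replicates 2 and 3 averaged 10 and 4 were called. ZIC1, of neural crest and cerebellum, read 4.15, 3.82, 3.55 and 3.53 at 0 h and 6.49, 5.98 and 5.74 at 18 h, with 1 of 4 arrays above the dim line at 0 h, and the rise was 2.03 with dim values taken as log2 4. SNAI2, a repressor of epithelial genes, read 6.83, 8.14, 7.96 and 8.03 and then 9.32, 9.90 and 9.83 (1.94 ± 0.28). SOX9, of cartilage and neural crest, read 9.43, 8.89, 8.75 and 8.96 and then 10.93, 10.57 and 10.47 (1.65 ± 0.15), and MEF2C rose by 2.13 ± 0.38.

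GATA2 fell from 6.62, 7.30, 7.48 and 7.43 to 5.32, 5.68 and 5.67 (-1.65 ± 0.23), POU4F1, of sensory neurons, by 1.19 ± 0.15 and RUNX3 by 1.09 ± 0.16. Nuclear receptors added NR3C1, the glucocorticoid receptor, up by 1.50 ± 0.31, from 7.40 to 8.38 up to 10.11, 9.03 and 9.13, with its 3 other probe sets up by 0.32 to 1.58. Of these 18 genes and coregulators 3 were called higher, near the 14.8% of all genes, and 1 lower, under the 14.7%.

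Of 30 chemokine, cytokine and NF-kB genes 7 were called higher and 3 lower, against 14.8% and 14.7% of all genes. PTGS2, cyclooxygenase 2, read 4.80, 4.16, 3.76 and 3.88 at 0 h and 6.87, 6.94 and 6.58 at 18 h (2.64 ± 0.22). VCAM1, an adhesion molecule for leukocytes, read 5.09, 4.55, 4.09 and 3.19 and then 6.81, 6.74 and 6.70 (2.52 ± 0.31), and SOCS1 rose by 1.97 ± 0.23. The death receptor gene TNFRSF21 fell by 1.50 ± 0.24. Of 35 interferon and MHC genes 5 were called higher and 1 lower, under the 14.8% and 14.7% of all genes. With the average 2 and 0 were called. IFI44L rose by 2.46 ± 0.52 and was highest in replicate 1 at both times (6.00 and 7.51).

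The survival gene MCL1 fell from 10.82, 10.59, 10.59 and 10.59 to 9.67, 9.50 and 9.53 (-1.08 ± 0.15), and all 4 of its other probe sets fell, by 0.81 to 1.46. BID, which links death receptors to mitochondria, fell by 0.73 ± 0.16. Of 13 ion channel genes 5 were called higher and 1 lower, against 14.8% and 14.7% of all genes. The channel subunit gene CACNB2, dim at 18 h, was at least 2.18-fold lower.

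The lists of known fusion targets were drawn up with earlier results of these arrays known, so they are no independent evidence of direction. Of 27 activated genes tested 19 were called lower and 0 higher. CCND1, cyclin D1, read 12.87, 12.66, 12.66 and 12.93 at 0 h and 11.27, 10.83 and 10.94 at 18 h (-1.77 ± 0.16). BCL11B, a zinc finger repressor, read 9.35, 9.11, 9.05 and 9.09 and then 7.79, 7.54 and 7.45 (-1.56 ± 0.16), and RCOR1, of the CoREST complex, fell by 1.24 ± 0.11. Of 18 repressed genes 6 were called higher and 2 lower. FOXO1, a factor restrained by AKT, rose from 4.20 to 4.83 up to 5.82, 5.65 and 5.88 (1.32 ± 0.21), FOXO3 by 0.75 ± 0.15 and TGFBR2 by 0.60 ± 0.12, the last not called on the mean of its probe sets (limma adjusted p = 0.12). The 2 that fell were the death receptor FAS (-0.81 ± 0.18) and the interleukin 1 receptor partner IL1RAP (-1.15 ± 0.22).

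The ETS letters CCGGAAGT (either strand) stood in 3.70% of promoters of genes called lower by at least 1 and 1.70% of those called higher by at least 1, against 9.32% of all. A pair of GGAA units (GGAAGGAA, either strand) stood in 0 of 135 promoters of the genes that fell by at least 1, in 5.68% of those that rose by at least 1 and in 3.38% of all. When any listed window of a gene was allowed, the share among genes that fell was 2.22%, so these shares rest on few matches.

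Several counts fell by more than 1.5 times without replicate 1 at 18 h. Called lower were then 9 genes of nucleotide synthesis, 10 splicing factors, 8 genes of the mitochondrial ribosome, 3 silencing genes, 1 heat shock gene, 2 matrix genes and 0 of the MYC network. Called higher were 8 developmental transcription factors, 3 genes each of cholesterol synthesis, hypoxia and the interferon list, 2 Notch genes and 0 of the MYC network. Among the other arrays, leaving out replicate 2 at 0 h left 5 silencing genes lower and 4 hypoxia genes higher, and leaving out replicate 3 at 0 h left 2 heat shock genes lower, 4 hypoxia genes higher and 2 Notch genes higher. Without replicate 4 at 0 h, 4 mitotic genes were called lower, 2 Notch genes higher and 3 interferon genes higher. Without replicate 2 or 3 at 18 h, 3 interferon genes were called higher, and without replicate 3 at 18 h 3 matrix genes lower.

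**Figure D4:**
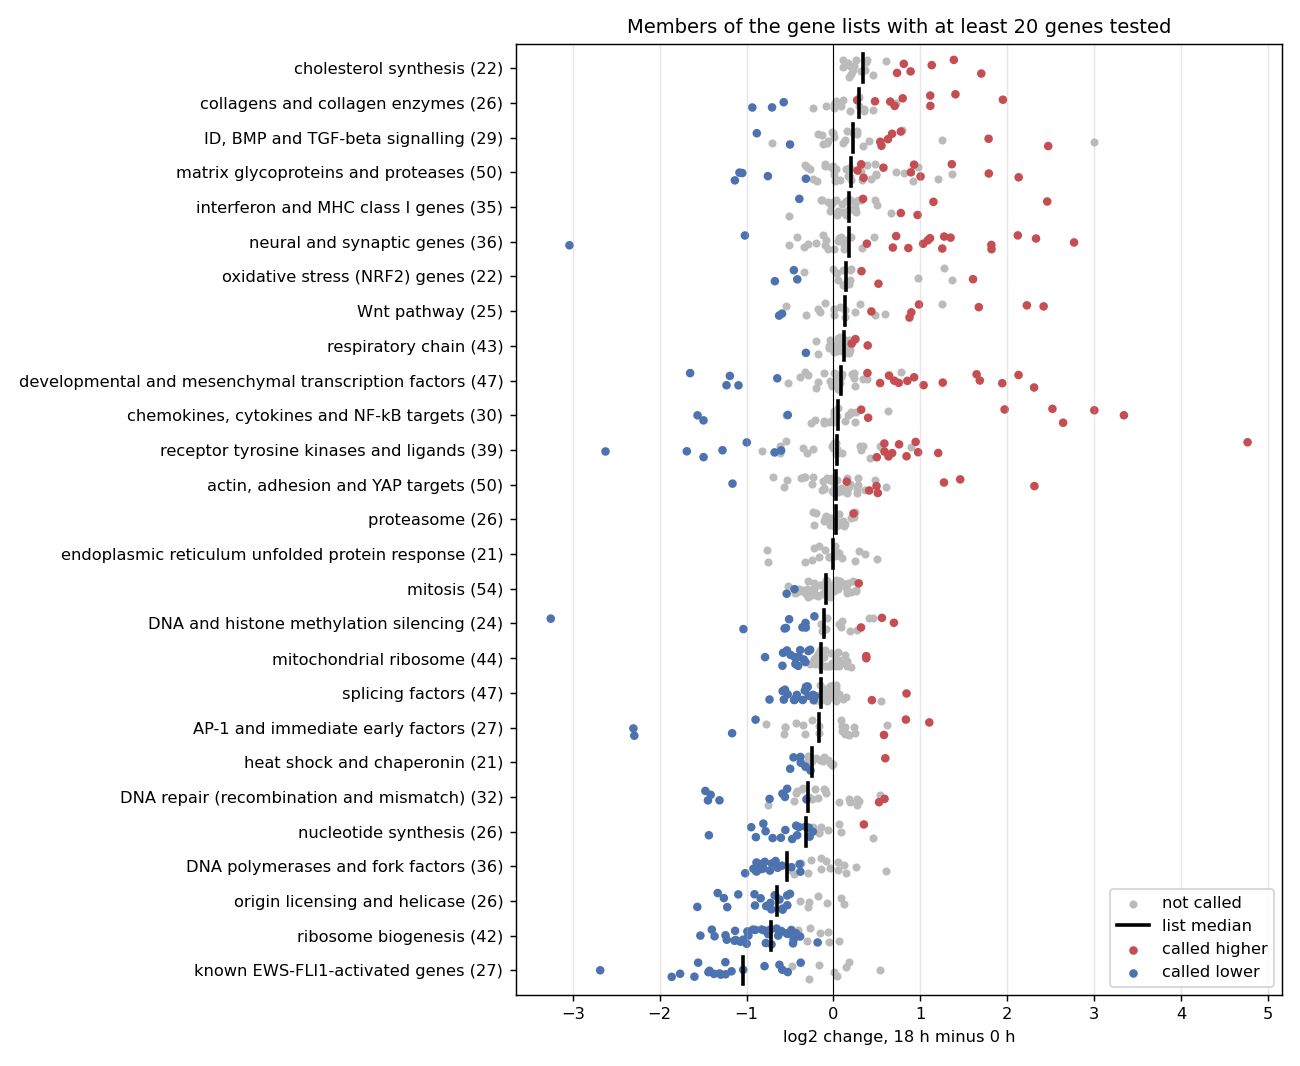
Log2 change, 18 h minus 0 h, of the members of each list with at least 20 genes tested, in order of the list median (black bar); the number tested is in brackets. Red points were called higher, blue points called lower and grey points not called. The activated targets of the fusion, ribosome biogenesis and replication lists lie farthest to the left, and mitosis and the unfolded protein response lie around 0 with almost all points grey.

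Some genes stood at 18 h beyond their level on every other array. Of all genes tested 0.698% (51) were called higher with all 3 arrays above the other 13 of the series, and 0.438% (32) were called lower with all 3 below. The widest dip was that of PRR5L, which was at 5.98 to 6.29 at 36 h and at a mean of 9.08 at 53 h, above its 0 h level. LBH, a transcriptional co-regulator of limb and heart, read 8.58, 9.10, 8.96 and 9.79 at 0 h, 6.76, 6.85 and 6.84 at 18 h and 9.08 and 9.34 at 53 h.

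MAFF, a small MAF factor, read 8.76, 9.09, 9.18 and 9.23 at 0 h, 8.01, 7.92 and 7.76 at 18 h and 10.84 and 10.54 at 53 h. YPEL5 read 10.90 to 11.21 at 0 h and 10.12, 9.79 and 9.64 at 18 h (-1.19 ± 0.12), and was back at 10.93 to 11.12 at 36 h. GATA3 read 3.88, 4.01, 4.46 and 3.79 at 0 h and 2.17, 2.98 and 3.26 at 18 h, so that both times lay around or below the dim line. In 30 of the 32 genes the mean of at least 1 later time was above the 0 h mean. The genes were chosen for lying below every later array as well, which favours such a count. The same share over all genes was not taken.

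Among the peaks, RFX3, a regulator of ciliary genes, read 3.46 to 3.95 at 0 h, 4.94, 5.43 and 4.89 at 18 h and 3.93 to 4.35 at 36 h, at least 2.12-fold higher than at 0 h. PDK3, a kinase that restrains pyruvate dehydrogenase, was at least 1.63-fold higher. C11orf71 rose by 0.93 ± 0.11 and IFT70A, of intraflagellar transport, by 0.88 ± 0.14. PIR, a nuclear iron-binding protein, rose by 0.87 ± 0.25, with replicate 4 at 0 h (8.30) below the other 3 (9.47 to 9.65), and was not called with replicates 2 and 3 averaged (limma adjusted p = 0.0805).

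**Figure D5:**
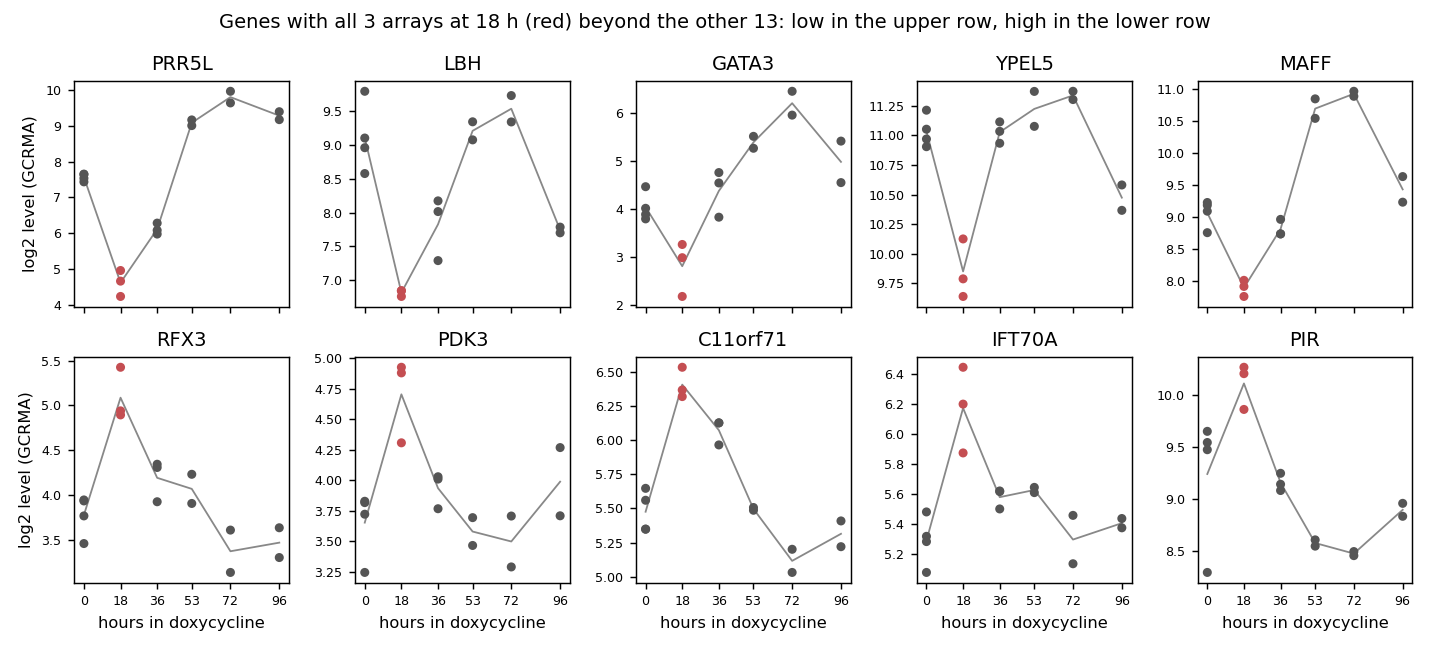
Log2 level on each of the 16 arrays against hours in doxycycline for the 5 genes with the widest dip (upper row) and the 5 with the widest peak (lower row) among genes whose 3 arrays at 18 h, in red, lie beyond the other 13. Lines join the mean of each time. PRR5L, GATA3 and MAFF lie above their 0 h arrays at 53 h, and RFX3 is back near its 0 h level of 3.46 to 3.95 at 72 h.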

How the data were processed

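RNA was measured on Affymetrix arrays, 4 at 0 h and 3 at 18 h. The deposited values are log2 signals, made by the authors with GCRMA per the submitters' processing notes, and its version is not given in the sources used here. Of 22277 probe sets, 19064 had 1 gene symbol in the platform annotation, 1043 several and 2164 none; 62 were controls. Each of the 11963 genes was represented by its brightest probe set, and the 7304 genes at or above log2 4 on at least 2 arrays were tested.

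Changes were tested with limma 3.58.1 (R 4.3.3), with 1 mean per time over all 16 arrays, 10 residual degrees of freedom, a trend in eBayes and Benjamini-Hochberg adjustment at 0.05. In simulated data for this comparison over 7304 genes, 84% of changes of 1 and 58% of changes of 0.5 were recovered, with 13 false calls. The real arrays were unevenly related, since some replicates lay much closer together than others and arrays with the same replicate number deviated together. Whether the simulated shares and false calls hold for arrays related in this way was not tested. Levels across arrays were compared with exact permutation tests. Precision is limited by how few arrays there are.

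The replicate numbers come from the titles. Deviations from the group means of same-numbered arrays at 0 h and 18 h correlated at 0.632, 0.545 and 0.508 for numbers 1, 2 and 3. These are not 3 separate agreements, since deviations within a group sum to 0. At 18 h those of replicates 1 and 2 correlated at -0.896. The values set replicate 1 apart from replicates 2 and 3, and numbers 2 and 3 were not told apart. Alternatives were the replicate block, replicates 2 and 3 averaged, the 7 arrays alone, other filters, probe sets, normalizations, weights and thresholds, and each array left out in turn. Replicate 1 alone and replicates 2 and 3 alone were compared after seeing the data.

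Named were FLI1 and EWSR1, the 15 widest changes each way among called genes without overlap and above the dim line, the 8 widest each way among genes dim in 1 group, the 5 widest each way beyond every other array, up to 6 called members each way per list, and the 6 smallest adjusted p each way. Other genes named, such as ATF4, TRIB3, DDIT3, ASNS, HSPA5, NPM1, NCL, CCNB1, CDC20, CDKN1A, FOS and those whose promoters are shown, were chosen after their values were seen. The genes and lists were chosen with earlier results of these data known. Promoters are those of the RefSeq table of GRCh38.p14, and for genes with several windows the first was used.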

Additional observations from a re-analysis of the deposited data

Results flagged for a closer look

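Among the 4 arrays at 0 h, 1 array lay far from the other 3 for 14 of the genes named and for 1 marker mean, with a gap to its neighbour over the whole range above Dixon's critical value for 4 samples, which chance exceeds in about 1 of 20 groups. In all, 204 values were examined and 15 had such an array. Replicate 1 was the far array for ASNS (9.63, the others 10.07 to 10.16), CCNE2 (6.59, the others 7.27 to 7.28), SNAI2 (6.83, the others 7.96 to 8.14), DDIT4 (6.23, the others 4.59 to 4.71) and MCL1 (10.82, the others 10.59). It was also the far array for the mean of the endothelial markers, at 3.77 against 3.97 to 4.00.

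Replicate 4 was the far array for IGFBP5 (6.60, the others 4.69 to 5.00), CDH11 (11.73, the others 12.05 to 12.11), DKK3 (3.06, the others 4.21 to 4.37), LSS (8.47, the others 9.05 to 9.15), PIR (8.30, the others 9.47 to 9.65) and TLE1 (6.41, the others 7.30 to 7.46). For DKK1 it read 2.04 against 1.79 to 1.83, and for SLAMF1 1.78 against 2.60 to 2.76, both in the dim range. Replicate 3 read 2.92 for CHAC1 against 2.69 to 2.70, also dim.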

How the results depend on the processing

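Of the 182 called genes whose change is discussed, 164 were called under every alternative that could test them and 0 changed direction. Without probe sets of the _x and _s types 119 of the 182 had a value. List medians were less stable, and 18 of 51 changed sign under at least 1 fitted alternative. Of the 13 list medians beyond 0.3 either way, 1 did so. With the replicate block, 987 genes were called higher and 1007 lower, and 1812 of the 2150 main calls were kept in the same direction. Among the genes discussed, this block ended the calls of MNT and P4HA2. Counts moved over 1.5-fold under array weights (1852 higher, 1694 lower), with replicates 2 and 3 averaged (592 and 677) and without replicate 1 at 18 h (667 and 686). They also did so without probe sets of the _x and _s types (646 and 674, with 4429 genes tested) and with a change of at least 1 required (220 and 180). Leaving out 1 array at a time gave 667 to 1154 higher and 686 to 1063 lower, with both lowest counts without replicate 1 at 18 h.

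Without replicate 1 at 18 h the calls of HELLS, MAD2L1, MNT, MXI1, P4HA2, SPRY4 and TM7SF2 were lost. Without replicate 2 at 18 h those of MNT, PIR and PTX3 were lost, and without replicate 3 at 18 h those of PIR and PTX3. At 0 h, MNT was lost without any 1 of the 4 replicates, P4HA2 without replicate 2 or 3, and MXI1 and SPRY4 without replicate 3 or 4. Averaging replicates 2 and 3 ended the calls of DKK1, MNT, P4HA2, PIR, PTX3 and SPRY4, and the fit of the 7 arrays alone those of MNT, MXI1, PIR and SPRY4. MNT was also lost without a filter and with a second quantile normalization, and SPRY4 without a filter.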
